A study of Mus musculus with 6 samples.

Results

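The genes described here encode proteins that regulatory T cells (Tregs) release or place on their surface to restrain other cells or to support tissue repair. They were chosen by symbol: Ebi3 and Il12a, the paired chains named for interleukin 35, then Il10, Fgl2, Areg, Penk, Gzmb and Lgals1. All 8 were found among the 55840 genes of the deposited table. RNA-seq was run on 6 mouse Treg libraries that the titles call biological replicates, 3 of genotype WT and 3 of genotype Exon2KO. The series title places the cells in spleen and lymph nodes and writes the mutant as Foxp3 with a delta 2 mark, that is, Foxp3 without its second coding exon. The labels give no treatment, age, strain background or sorting gate, and do not say how many animals went into a library. Column names carry a genotype and a number, 2, 6 or 20, so libraries are named WT 2, WT 6, WT 20, Exon2KO 2, Exon2KO 6 and Exon2KO 20.

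Tregs are CD4 T cells that hold back immune responses, and Foxp3 is the transcription factor that defines them. They act partly by contact and partly by secreted products: cytokines such as IL-10 and IL-35, the fibrinogen-like protein Fgl2, the cytotoxic protease granzyme B and the sugar-binding protein galectin 1. Tregs resident in tissues also make factors that act on non-immune cells, among them the growth factor amphiregulin and the opioid precursor proenkephalin.

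Total counts ran from 17998216 to 21003496 per library. Marker genes of Tregs and of T cells in general were abundant in every library. The summed level of 8 markers, among them Foxp3, Cd4 and Il2ra, was 3592 to 4057 CPM in WT and 3242 to 3670 CPM in Exon2KO. CPM are counts scaled to 1000000 per library. Cd3e, Cd3g and Cd4, which other T cells share, count in this sum. They changed by 0.02, -0.01 and 0.22, called in neither fit. Of these 8 markers 3 were called lower in Exon2KO and 0 higher: Ctla4, Ikzf2 and Il2ra, with log2 fold changes of -0.85, -0.66 and -0.52 (edgeR adjusted p = 0.00677, 0.0240 and 0.0429), beside 1.58% and 0.757% of all 14919 tested genes called lower and higher. Tnfrsf18 was called lower with the column number fitted as a block (-0.73). Foxp3 itself had 10934 to 15997 counts in WT and 13336 to 16437 in Exon2KO, and counts per gene cannot show whether its second coding exon is missing. A floor of 3 counts, which covers counting error only, corresponds to 0.141 to 0.169 CPM depending on the library. Same-numbered libraries of the 2 genotypes deviated together from the genotype means, so the number was also fitted as a block. In bulk RNA, fewer cells that make a transcript and less transcript per cell cannot be told apart.

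Transcripts of 3 effectors, Penk, Fgl2 and Ebi3, were lower in Exon2KO Tregs by 2.65-fold to 3.65-fold. With the column number as a block, Areg was lower too. Il10, Gzmb and Lgals1 did not pass the test in either fit, and Il12a had too few counts to be tested. Of the 7 tested members, 3 were called lower and 0 higher by edgeR's quasi-likelihood test at an adjusted p under 0.05, against 1.58% of the 14919 tested genes called lower and 0.757% called higher. With the block 4 were called lower, against 5.79% of tested genes called lower and 3.93% called higher. Over these 7 genes the log2 fold changes had a median of -1.42, beside 0.0084 over all tested genes. The same 3 genes, Penk, Fgl2 and Ebi3, had no overlap between the genotypes, which 9.32% of tested genes showed in the lower direction.

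**Figure D1:**
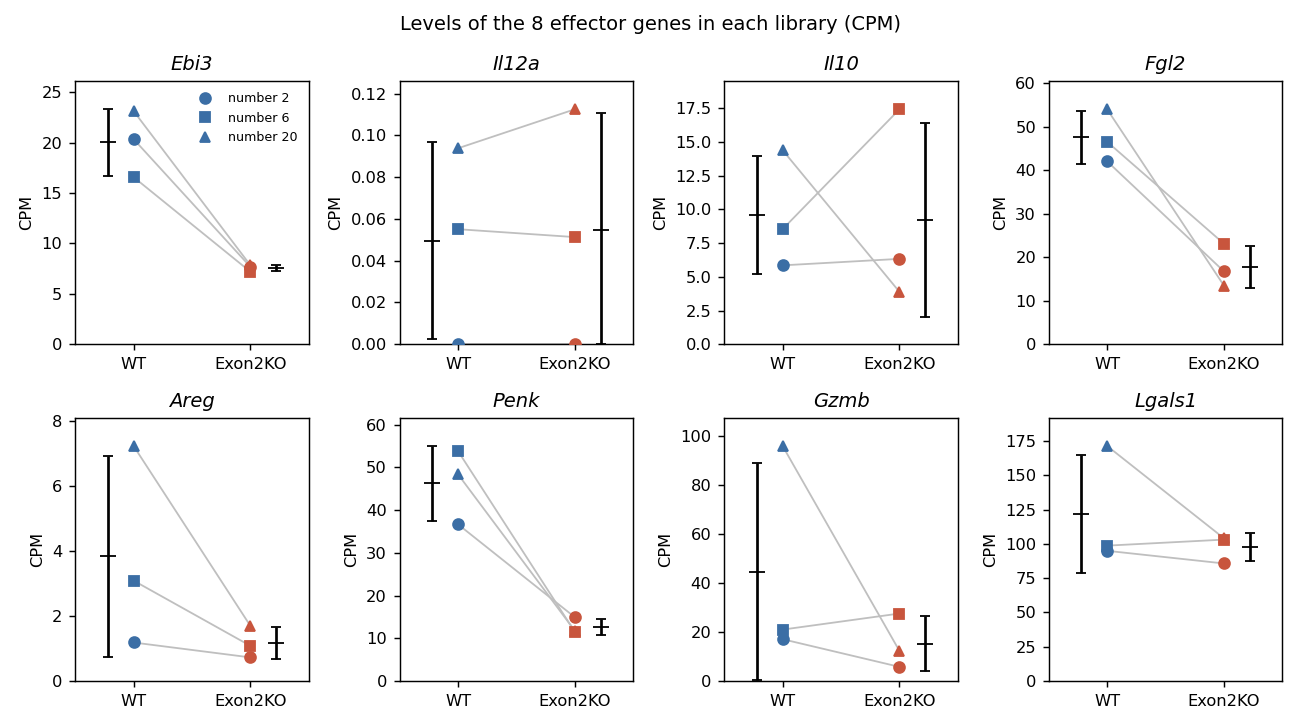
Level of each of the 8 genes in CPM (linear axes from 0, a scale of its own per panel) in the 3 WT and 3 Exon2KO libraries, with grey lines joining libraries of the same column number and black bars giving mean and SD (cut at 0). Every Exon2KO point of Ebi3, Fgl2 and Penk lies below every WT point, whereas Gzmb and Il10 cross between column numbers.

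Penk encodes proenkephalin, which prohormone convertases cleave into enkephalins, short peptides that activate opioid receptors. Penk fell most among the called members, and its single reading frame holds the peptide several times over, so the coding units are shown. They were read from the 807-base coding sequence of the GENCODE transcript Penk-201. Capitals mark the 15 bases of the enkephalin unit, found in frame by its codons and closed by a Met or Leu codon, and lower case gives the 6 coding bases on either side. Of the 7 units, 6 end in a Met codon and unit 6 in a Leu codon. Units 1, 4 and 6 are these.
Penk unit 1: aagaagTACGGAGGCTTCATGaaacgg
Penk unit 4: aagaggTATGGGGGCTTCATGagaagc
Penk unit 6: aagaggTATGGGGGCTTCCTGaagcgc

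Penk lies on chromosome 4 from 4133531 to 4138819, minus strand (GRCm38). Read counts were 683, 977 and 1031 for WT 2, 6 and 20, against 268, 223 and 208 for Exon2KO 2, 6 and 20. The corresponding levels were 36.7, 53.8 and 48.4 CPM in WT and 14.9, 11.4 and 11.7 CPM in Exon2KO. All 3 Exon2KO libraries were low and the genotypes did not overlap. The mean went from 46.3 ± 8.76 CPM in WT to 12.7 ± 1.92 CPM in Exon2KO (SD, n = 3 each), and edgeR gave a log2 fold change of -1.87 with SE 0.17 (adjusted p = 0.00118). Within column numbers the difference was -1.30 for number 2, -2.23 for number 6 and -2.05 for number 20. Penk kept its call in all 18 alternative settings, the only member to do so. The noncoding gene A830012C17Rik overlaps Penk on the opposite strand and had 2 counts in all libraries together.

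Other genes of the opioid system were few in these libraries. Of 11 listed precursors, processing enzymes and receptors, 5 could be tested and none was called without the block, beside 2.33% of all tested genes. Furin, a ubiquitous proprotein convertase, changed by 0.21 (SE 0.07, edgeR adjusted p = 0.199) and was called higher with the block (0.21, edgeR adjusted p = 0.0321), beside 3.93% of all tested genes. Pomc, the precursor of endorphin, was counted 9, 7 and 8 times in WT against 10, 26 and 15 times in Exon2KO. At this low level its genotypes did not overlap, as for 17.7% of tested genes in either direction. Its log2 fold change was 1.13 (SE 0.49, edgeR adjusted p = 0.383). Oprm1, the mu opioid receptor gene, had 16 to 49 counts per library and changed by -0.03.

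Ebi3 and Il12a encode the chains named for IL-35, and each also pairs elsewhere: Ebi3 with the p28 chain (Il27) in IL-27, Il12a with Il12b in IL-12. Ebi3 (chromosome 17, 55952640 to 55957022, plus strand) was counted 379, 301 and 493 times in WT 2, 6 and 20 against 138, 140 and 139 times in Exon2KO 2, 6 and 20. The 3 Exon2KO libraries were nearly equal, at 7.67, 7.18 and 7.82 CPM, and all lay below the WT levels of 20.4, 16.6 and 23.1 CPM. Mean CPM (± SD, n = 3 each) fell from 20.02 ± 3.29 in WT to 7.56 ± 0.334 in Exon2KO. The log2 fold change was -1.41 with SE 0.16 (edgeR adjusted p = 0.00268), and ran from -1.56 to -1.21 within column numbers. Gm16712, a noncoding gene on the opposite strand, overlaps Ebi3. It had 296 counts over all libraries against 1590 for Ebi3 and changed by -1.11, and since no strand setting is given the reads of the pair cannot be told apart.

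Il12a (chromosome 3, 68690644 to 68698547, plus strand) was close to absent from these counts. Its 6 counts fell as 0, 1 and 2 on WT 2, 6 and 20 and likewise as 0, 1 and 2 on Exon2KO 2, 6 and 20, each under the 3-count floor. No difference between genotypes was detectable at this depth. Il27 and Il12b had 2 counts each over the 6 libraries, and Il23a, another chain of the family, had 18. Counts of the receptor chains differed widely. Il12rb2, a chain of the IL-12 and IL-35 receptors, had 13 to 32 counts per library and Il12rb1 41 to 239. Il6st, which encodes gp130 and serves IL-27 and IL-35, was at 337 ± 29.7 CPM in WT and 367 ± 15.2 CPM in Exon2KO (SD, n = 3 each). Il27ra was at 354 ± 15.6 and 351 ± 14.0 CPM (SD, n = 3 each). None of the 4 tested genes of this family list was called in either fit. Of all tested genes 2.33% were called without the block and 9.72% with it. The log2 fold changes of Il6st and Il27ra were 0.12 (SE 0.08) and -0.01 (SE 0.07).

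Fgl2 encodes fibrinogen-like protein 2, a secreted Treg product that binds Fc receptors on antigen-presenting cells. It lies on chromosome 5 from 21372642 to 21378374, plus strand. It was counted 783, 845 and 1151 times in WT 2, 6 and 20 against 301, 450 and 239 times in Exon2KO 2, 6 and 20. Levels were 42.0, 46.5 and 54.0 CPM in WT and 16.7, 23.1 and 13.4 CPM in Exon2KO, with Exon2KO 6 the highest mutant library and still below WT. Mean CPM (± SD, n = 3 each) fell from 47.5 ± 6.04 in WT to 17.8 ± 4.90 in Exon2KO, and edgeR gave a log2 fold change of -1.42 ± 0.19 (SE, adjusted p = 0.00915). Without Exon2KO 2 the call was lost, with a log2 fold change of -1.38 (edgeR adjusted p = 0.0759). Ccdc146 overlaps Fgl2 on the opposite strand and had 76 counts against 3769.

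Tigit, a checkpoint receptor known to induce Fgl2 in Tregs, was at 102, 130 and 141 CPM in WT and 34.2, 65.9 and 23.1 CPM in Exon2KO. The genotypes did not overlap, as for 9.32% of tested genes in the lower direction. Tigit did not pass the test (log2 fold change -1.59, SE 0.42, edgeR adjusted p = 0.203, and 0.248 with the block). The Fc receptor genes Fcgr2b and Fcgr3 reached at most 15 counts in a library.

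Promoters of Ebi3 and Fgl2 are shown because these genes fell by similar amounts, beside Gzmb, which did not pass the test. Each is RefSeq sequence (GRCm38.p6) from 250 to 6 bases before the RefSeq start, 5′ to 3′ along the gene, and 5 of the 8 members had an entry: Ebi3, Il12a, Fgl2, Areg and Gzmb. Both strands were searched for the forkhead letters TGTTTAC, the AP-1 letters TGANTCA, the STAT letters TTCNNNGAA, the NFAT letters GGAAAA and an NF-kB motif of 10 letters. Capitals mark matches to these 5. The windows are chr17:55952373-55952617 (plus strand), chr5:21372423-21372667 (plus strand) and chr14:56262340-56262584 (minus strand).
Ebi3: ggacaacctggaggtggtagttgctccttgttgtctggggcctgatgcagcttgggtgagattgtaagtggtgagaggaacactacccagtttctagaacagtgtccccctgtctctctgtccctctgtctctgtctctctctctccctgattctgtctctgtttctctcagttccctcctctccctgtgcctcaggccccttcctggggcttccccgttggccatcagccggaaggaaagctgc
Fgl2: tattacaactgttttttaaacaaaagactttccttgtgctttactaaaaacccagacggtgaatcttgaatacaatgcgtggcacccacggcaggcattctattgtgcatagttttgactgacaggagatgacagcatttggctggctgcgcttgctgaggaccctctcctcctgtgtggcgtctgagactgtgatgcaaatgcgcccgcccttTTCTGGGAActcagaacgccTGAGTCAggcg
Gzmb: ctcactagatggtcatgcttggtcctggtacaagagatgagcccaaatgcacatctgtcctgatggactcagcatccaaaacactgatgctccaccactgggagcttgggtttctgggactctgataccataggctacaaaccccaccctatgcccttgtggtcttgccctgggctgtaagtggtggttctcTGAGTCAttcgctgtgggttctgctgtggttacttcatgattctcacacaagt

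Fgl2 and Gzmb both hold the AP-1 letters as TGAGTCA, starting 16 and 58 bases before their starts, and 6.66% of the 32851 promoter windows of this length hold a match to TGANTCA. Fgl2 also holds TTCTGGGAA, a match to the STAT letters found in 6.90% of windows, 36 bases before its RefSeq start. The deposited start of Fgl2 lies upstream of the RefSeq start, so its AP-1 letters fall inside the deposited gene. None of these 5 motifs, as spelled above, occurs in the Ebi3, Areg or Il12a windows. Looser forms, such as other spellings of the NF-kB site, were not searched. The E-box letters CANNTG were searched as well and are not in capitals, since 65.7% of windows hold them. They occur in the Fgl2, Gzmb, Areg and Il12a windows and not in that of Ebi3. The forkhead letters were in no member window and in 3.11% of all windows. These are matches of letters only, and Ebi3 and Fgl2 share none of the motifs searched.

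Il10 encodes interleukin 10, the cytokine through which Tregs restrain inflammation at barrier surfaces. It lies on chromosome 1 from 131019845 to 131024974, plus strand. Read counts were 109, 155 and 307 for WT 2, 6 and 20, against 114, 340 and 69 for Exon2KO 2, 6 and 20. Exon2KO 6 was the highest of all 6 libraries at 17.4 CPM and Exon2KO 20 the lowest at 3.88 CPM, so the genotypes overlapped completely. Means were 9.60 ± 4.37 CPM in WT and 9.22 ± 7.22 CPM in Exon2KO (SD, n = 3 each). The log2 fold change was -0.06 with a 95% interval from -1.63 to 1.52 (edgeR adjusted p = 0.991), wide enough to hold a change of the size seen for Fgl2 in either direction. Within column numbers the difference was 0.11, 1.03 and -1.89 for numbers 2, 6 and 20.

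Around Il10, the receptor and the transcription factors known to act on the gene were lower or uncalled. Of the 10 listed genes, all tested, 2 were called lower without the block and 5 with it, beside 1.58% and 5.79% of all tested genes, and none was called higher. All 10 had a negative log2 fold change (median -0.54), as did 48.2% of all tested genes. Ikzf3 was nearly unchanged (-0.008, SE 0.11), and the value for Maf (-0.39) was smaller than its SE of 0.46. Il10ra, the ligand-binding receptor chain, fell from 133 ± 26.0 CPM in WT to 61.2 ± 13.9 CPM in Exon2KO (SD, n = 3 each), and its log2 fold change was -1.11 ± 0.20 (SE, edgeR adjusted p = 0.0451). Its call was lost without WT 2, WT 6 or Exon2KO 2 (edgeR adjusted p = 0.166, 0.131 and 0.199) and without a count filter (0.224), and held with the block (1.94e-08). Il10rb, the second receptor chain, changed by -0.27 and was called only with the block (edgeR adjusted p = 0.0273).

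Batf, an AP-1 family factor of effector Tregs, changed by -0.58 (SE 0.12, edgeR adjusted p = 0.0459), and 5 of the 6 fits that left out 1 library lost its call. The exception was the fit without Exon2KO 6 (edgeR adjusted p = 0.0237). Irf4, its partner on DNA, changed by -0.34 (edgeR adjusted p = 0.00455 with the block and 0.0320 without a count filter, the settings in which it was called). Bhlhe40, a repressor of Il10, changed by -0.79 with the block (edgeR adjusted p = 3.41e-05), and was not called without it (-0.76, edgeR adjusted p = 0.713). Prdm1, which encodes Blimp-1, was at 38.4, 49.5 and 51.9 CPM in WT and 19.3, 31.1 and 12.5 CPM in Exon2KO. It was not called (edgeR adjusted p = 0.206) and did not overlap, as for 9.32% of tested genes in the lower direction. Maf, an activator of Il10, was at 182, 253 and 233 CPM in WT and 147, 277 and 85.6 CPM in Exon2KO, so its highest library was again Exon2KO 6. In 8 of these 10 genes the highest Exon2KO library was number 6, against 33.5% of all tested genes.

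Gzmb encodes granzyme B, a serine protease that enters target cells with perforin and triggers their death. It lies on chromosome 14 from 56258838 to 56262260, minus strand. Read counts were 317, 380 and 2043 for WT 2, 6 and 20, against 103, 536 and 217 for Exon2KO 2, 6 and 20. WT 20 stood apart at 95.9 CPM against 17.0 and 20.9 CPM in WT 2 and WT 6, and Exon2KO 6 at 27.5 CPM lay above those 2 WT libraries. Means were 44.6 ± 44.4 CPM in WT and 15.1 ± 11.2 CPM in Exon2KO (SD, n = 3 each), and the log2 fold change was -1.56 with a 95% interval from -4.21 to 1.09 (edgeR adjusted p = 0.689). Without WT 20 it was -0.32, and without both libraries numbered 20 it was -0.19. Gzmb varied more within genotypes than 99.8% of the 4098 tested genes whose mean CPM was within 2-fold of its own.

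The other granule genes did not share a direction. Of 13 tested genes of the list none was called without the block, beside 2.33% of all tested genes. With the block 3 were lower and 1 higher, beside 5.79% and 3.93% of all tested genes. Gzmc, another granzyme, was counted 45, 41 and 71 times in WT against 15, 14 and 29 times in Exon2KO (log2 fold change -1.33, edgeR adjusted p = 0.146, and -1.37 with the block, 0.0114). Srgn, which encodes the granule proteoglycan serglycin, changed by -0.39 (edgeR adjusted p = 0.0832, and 0.00283 with the block). Serpinb6a, a protease inhibitor gene, changed by -0.51 (edgeR adjusted p = 0.0616, and 0.00549 with the block). Gnptab, which encodes the enzyme that tags proteins for lysosomes, was called higher with the block (0.35, edgeR adjusted p = 0.0303). Prf1, the perforin gene, was counted 141, 155 and 158 times in WT against 129, 296 and 112 times in Exon2KO (log2 fold change 0.29, SE 0.32, edgeR adjusted p = 0.841).

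Areg encodes amphiregulin, a membrane-anchored growth factor that is shed and signals through the EGF receptor to support epithelial and muscle repair. It lies on chromosome 5 from 91139599 to 91148432, plus strand. Read counts were 22, 56 and 154 for WT 2, 6 and 20, against 13, 21 and 30 for Exon2KO 2, 6 and 20. Levels were 1.18, 3.08 and 7.23 CPM in WT and 0.722, 1.08 and 1.69 CPM in Exon2KO, and WT 2 lay below Exon2KO 20. The column numbers ranked the same way in both genotypes, and within each number Areg was lower in Exon2KO, by -0.71, -1.52 and -2.10 for numbers 2, 6 and 20. The log2 fold change was -1.72 (SE 0.64, edgeR adjusted p = 0.312) without the block and -1.55 (SE 0.32, edgeR adjusted p = 0.00487) with it. Over all alternatives the adjusted p ran from 0.00487 to 0.712, and only the block gave a call. Without WT 20 the log2 fold change was -0.87.

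Il1rl1, which encodes the IL-33 receptor ST2 that drives Areg in tissue Tregs, was at 49.2, 50.9 and 79.8 CPM in WT and 6.56, 8.10 and 11.9 CPM in Exon2KO. It fell by 2.76 in log2 terms (SE 0.28, edgeR adjusted p = 0.00638) and was the only 1 of 11 tested genes of the EGF list to be called in either fit, beside 2.33% of all tested genes called in either direction without the block and 9.72% with it. Il18r1, a receptor chain for IL-18, changed by -0.17 (SE 0.16, edgeR adjusted p = 0.811). The log2 fold changes of the sheddase genes Adam17 and Adam10, the first of which cuts amphiregulin from the membrane, were -0.08 (SE 0.08) and 0.02 (SE 0.11). Other EGF family ligands were low, with at most 50 counts in a library for Hbegf. Egfr, the receptor, was counted 8, 3 and 9 times in WT against 20, 11 and 17 times in Exon2KO (log2 fold change 1.34, SE 0.53, edgeR adjusted p = 0.327).

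Lgals1 encodes galectin 1, a secreted lectin that binds glycans on activated T cells and can cause their death. It lies on chromosome 15 from 78926725 to 78930465, plus strand. It was the member with the most counts, 1768, 1792 and 3654 for WT 2, 6 and 20 against 1542, 2010 and 1849 for Exon2KO 2, 6 and 20. Again WT 20 stood apart, at 171 CPM, while the other 5 libraries lay between 85.7 and 104 CPM. Means were 122 ± 43.1 CPM in WT and 97.6 ± 10.3 CPM in Exon2KO (SD, n = 3 each), and the log2 fold change was -0.32 with a 95% interval from -0.92 to 0.28 (edgeR adjusted p = 0.75). Without WT 20 it was 0.011. Among 7 other tested galectin genes none was called without the block, beside 2.33% of all tested genes. With the block Lgalsl, a galectin-like gene, was lower (-0.65, edgeR adjusted p = 0.0452), beside 5.79% of all tested genes. Lgals9 and Lgals8 changed by 0.09 (SE 0.15) and 0.01 (SE 0.08).

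**Figure D2:**
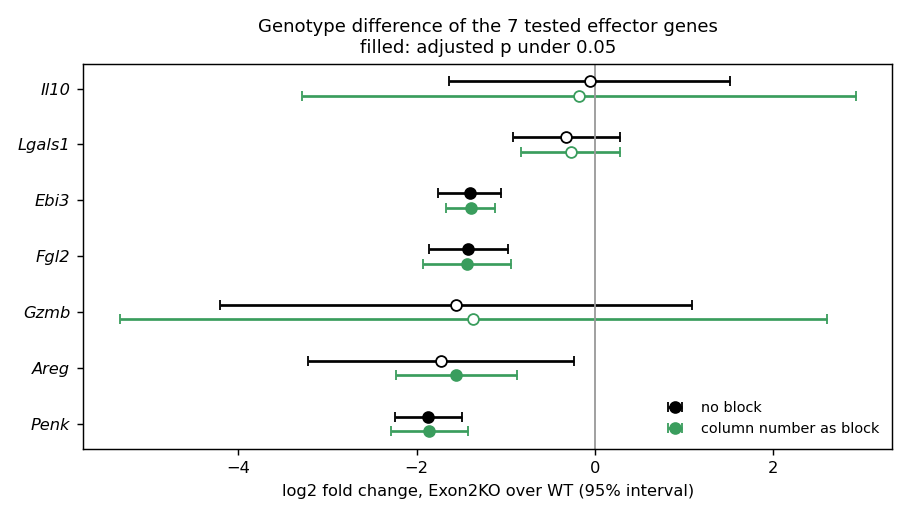
Log2 fold change of Exon2KO over WT with its 95% interval for the 7 tested members, without a block (black) and with the column number as a block (green), filled where the adjusted p is under 0.05. Ebi3, Fgl2 and Penk are filled in both fits and Areg only with the block, where its interval narrows to -2.23 to -0.88, while the intervals of Il10 and Gzmb widen with the block.

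Among other secreted factors, 16 of 22 could be tested, and 2 were called higher and none lower, beside 0.757% and 1.58% of all tested genes. Ccl20, the chemokine ligand of Ccr6, was counted 5, 5 and 7 times in WT against 88, 100 and 42 times in Exon2KO (log2 fold change 3.79, SE 0.42, edgeR adjusted p = 0.00254). Il17a, the type 17 cytokine, was counted 0, 0 and 1 times in WT against 14, 16 and 11 times in Exon2KO (edgeR adjusted p = 0.0177). The Il17a call was lost in 5 of the 6 fits without 1 library, the exception being that without Exon2KO 20, with adjusted p up to 0.105. With the block Tgfb1, the latent cytokine TGF-beta 1, was called lower (-0.20, edgeR adjusted p = 0.0482), as was Lrrc32, which encodes the protein GARP that holds latent TGF-beta on the Treg surface (-0.55, edgeR adjusted p = 0.00257). Without the block the values were -0.20 for Tgfb1 (edgeR adjusted p = 0.419) and -0.53 for Lrrc32 (0.162). Across all 8 related lists 69 of 99 genes were tested, 2 were called higher and 3 lower, which is 5 against 2.33% of tested genes. With the block 4 were higher and 12 lower, against 9.72% of tested genes.

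**Figure D3:**
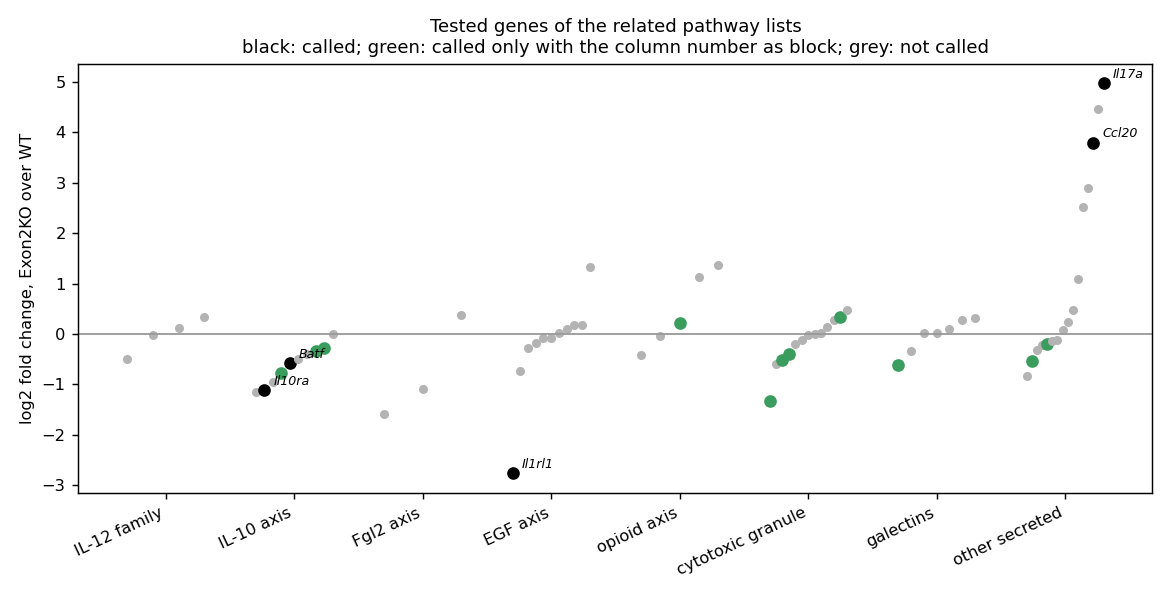
Log2 fold change of Exon2KO over WT for each tested gene of the 8 related lists, black where called, green where called only with the column number as a block and grey otherwise. The called genes are Il10ra, Batf and Il1rl1 below 0 and Ccl20 and Il17a above it. All 10 genes of the IL-10 list lie below 0, Ikzf3 only just (-0.008).

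To compare the members with each other, CPM were divided by the deposited gene length in kilobases. In WT the order of mean CPM per kilobase was Lgals1 (135 ± 47.8), Gzmb (31.1 ± 30.9), Penk (28.3 ± 5.36), Ebi3 (17.3 ± 2.85), Fgl2 (12.5 ± 1.595), Il10 (7.33 ± 3.34) and Areg (3.15 ± 2.54), with SD over 3 libraries. Below them came Il12a, under the 3-count floor throughout. The rank of Gzmb rested on WT 20: without that library its mean was 13.2 CPM per kilobase, below Penk (27.7) and Ebi3 (16.0) and above Fgl2 (11.7). On this scale the WT libraries of Gzmb overlapped those of Penk and the libraries of Il10 those of Areg, and no other neighbours in the order overlapped. In Exon2KO the order of mean CPM per kilobase was Lgals1 (108 ± 11.4), Gzmb (10.5 ± 7.78), Penk (7.76 ± 1.18), Il10 (7.04 ± 5.52), Ebi3 (6.55 ± 0.290), Fgl2 (4.69 ± 1.29) and Areg (0.957 ± 0.402), again with SD over 3 libraries. There Gzmb overlapped Penk, Penk overlapped Il10 and Il10 overlapped Ebi3, so the higher rank of Il10 than of Ebi3 lay within the spread. The ranks of Gzmb and Il10 rested on Exon2KO 6. Without that library the mean of Gzmb was 6.24 CPM per kilobase, below Penk (8.14) and Ebi3 (6.71), and that of Il10 was 3.90, below Ebi3 and Fgl2 (3.98).

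**Figure D4:**
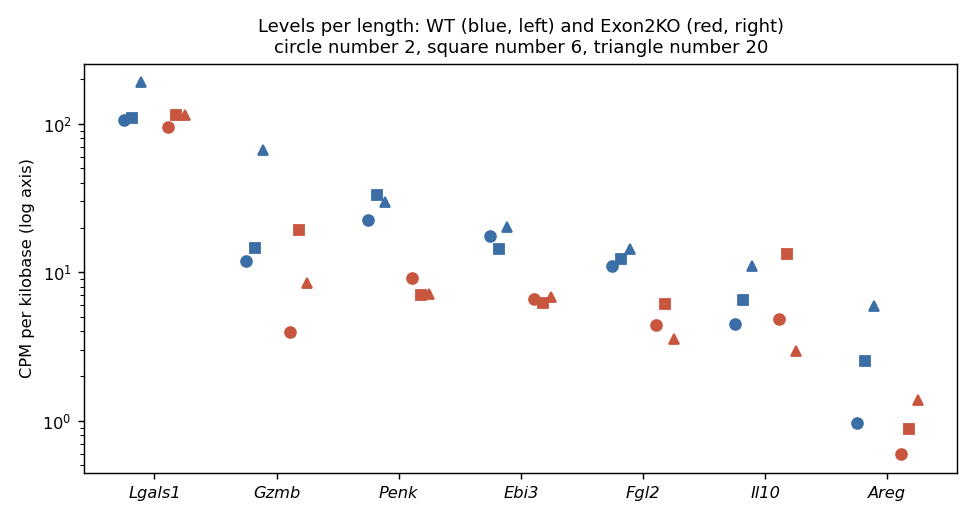
CPM per kilobase of gene length on a log axis for 7 members in each library, WT in blue and Exon2KO in red, with symbols for the column numbers and genes ordered by their WT mean (Il12a, at 0 counts in 2 libraries, is left out). Lgals1 lies highest in both genotypes, and the red points of Penk, Ebi3 and Fgl2 all lie below the blue ones.

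The members differed in how much they varied within a genotype. The within-genotype SD of log2 CPM was 0.18 for Ebi3, 0.25 for Penk, 0.30 for Fgl2, 0.36 for Lgals1, 0.90 for Il10, 0.97 for Areg and 1.25 for Gzmb. Among tested genes of similar mean CPM these SDs stood at the 47.8 percentile for Ebi3, 85.9 for Penk, 92.6 for Fgl2, 97.4 for Lgals1, 98.2 for Il10, 96.4 for Areg and 99.8 for Gzmb. In 6 of the 7 tested members WT 20 was the highest WT library, the exception being Penk, against 35.4% of all tested genes. Its deviation from the WT mean of log2 CPM was 1.56 for Gzmb, 1.24 for Areg, 0.68 for Il10 and 0.55 for Lgals1. Exon2KO 6 was the highest Exon2KO library for Il10, Fgl2 and Gzmb, with deviations of 1.19, 0.41 and 1.14. That is 42.9% of the tested members, near the 33.5% of all tested genes.

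**Figure D5:**
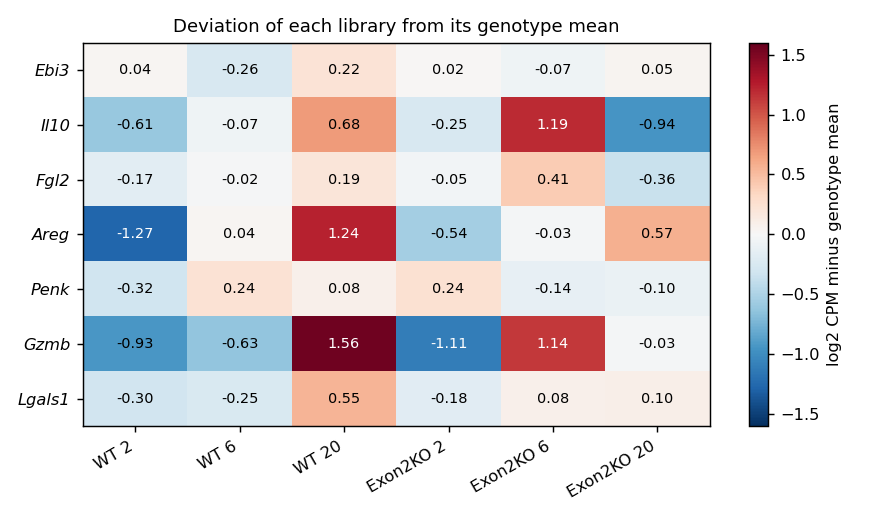
Deviation of each library from its genotype mean in log2 CPM for the 7 tested members (red above, blue below). All 7 are above the mean in WT 20, with Gzmb, Areg, Il10 and Lgals1 the furthest. In Exon2KO 6 Il10, Gzmb, Fgl2 and Lgals1 are above it, Lgals1 by only 0.08. The rows of Ebi3 and Penk stay between -0.32 and 0.24.

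Markers of other cells are given beside these values. The summed level of 12 myeloid markers was 85.9 CPM in WT 20 and 71.6 CPM in Exon2KO 20, against 32.2 to 39.5 CPM in the other 4 libraries. Within each column number the myeloid sum was lower in Exon2KO, at 32.2 against 39.5, 34.5 against 38.4 and 71.6 against 85.9 CPM for numbers 2, 6 and 20, and Lyz2 was called lower with the block (-0.40, edgeR adjusted p = 0.0413). Lyz2, S100a8 and S100a9 made up most of the excess in the libraries numbered 20. In WT 20 and Exon2KO 20 Lyz2 was at 28.5 and 23.1 CPM, S100a8 at 13.4 and 8.55 and S100a9 at 21.8 and 15.6. Elsewhere they were at 9.78 to 16.1, 1.43 to 2.56 and 2.10 to 3.44 CPM. Not all markers followed the sum. For numbers 2, 6 and 20 the log2 difference was 0.29, 0.69 and -0.65 for S100a8 and -0.18, 0.52 and 0.45 for Cd68. The 7 CD8 and NK cell markers summed to 20.4 to 23.7 CPM in WT and 22.6 to 35.3 CPM in Exon2KO, with the highest value in Exon2KO 6. That sum was mostly Eomes, at 22.5 CPM in Exon2KO 6 against at most 7.15 CPM in the other Exon2KO libraries. Cd8b1 was lowest in Exon2KO 6, at 7.18 CPM. Among Exon2KO libraries number 6 was highest for 3 of the 7 markers, beside 33.5% of all tested genes. Gzmk and Ccl5, genes of cytotoxic and memory T cells, had 425 and 1668 counts in Exon2KO 6 against at most 19 and 182 in the other Exon2KO libraries. Gzma, another granzyme gene, was not raised there, at 4.36 CPM against 4.39 and 7.99 CPM in Exon2KO 2 and 20. The 7 B cell markers summed to 39.6 to 45.5 CPM in WT and 33.1 to 35.3 CPM in Exon2KO. The 5 plasma cell markers summed to 67.0, 82.2 and 66.0 CPM in WT 2, 6 and 20 and to 37.0, 50.5 and 21.3 CPM in Exon2KO 2, 6 and 20. Both sums were lower in Exon2KO without overlap, the direction of Ebi3, Fgl2 and Penk. Sums without 1 gene, chosen after seeing the data, overlapped between genotypes. Without Cd79b the B cell sums were 17.9 to 24.96 CPM in WT and 18.4 to 20.7 CPM in Exon2KO. They were higher in Exon2KO for numbers 2 and 6 and lower for number 20. Without Prdm1 the plasma cell sums were 28.6, 32.7 and 14.2 CPM in WT 2, 6 and 20. In Exon2KO 2, 6 and 20 they were 17.7, 19.4 and 8.78 CPM, lower within each column number. No gene of either list was called without the block, beside 2.33% of all tested genes. With the block Cd79b of the B cell list (-0.51, edgeR adjusted p = 0.00501) and Jchain of the plasma cell list (-0.74, 0.000273) were lower, beside 5.79% of all tested genes. Prdm1, given above, counts in the plasma cell sum and is also made by Tregs. The 6 mast cell and basophil markers summed to 3.54 to 4.19 CPM in WT and 3.88 to 7.17 CPM in Exon2KO, and Mcpt8, Fcer1a and Mcpt4 had 0 counts in all libraries. The 8 erythroid and platelet markers summed to 11.6, 17.6 and 5.63 CPM in WT 2, 6 and 20 and to 10.2, 13.9 and 3.60 CPM in Exon2KO 2, 6 and 20, so they were low in both libraries numbered 20. The 7 stromal and endothelial markers summed to 165 to 191 CPM in WT and 188 to 225 CPM in Exon2KO, nearly all of it Pecam1, which was called higher with the block (0.23, edgeR adjusted p = 0.0164). Without Pecam1 the stromal sums were 1.76 to 4.13 CPM in WT and 0.611 to 2.05 CPM in Exon2KO, and the log2 fold changes of Col1a1 and Col1a2 were -1.20 (SE 0.51) and -1.54 (SE 0.70), called in neither fit. The part of these cells in the levels of the 8 members was not tested. Without both libraries numbered 20 Ebi3, Fgl2 and Penk changed by -1.32, -1.15 and -1.78 and kept their calls (edgeR adjusted p = 0.00413, 0.00471 and 0.00413). Without both libraries numbered 2 these genes changed by -1.40, -1.46 and -2.14 (edgeR adjusted p = 0.226, 0.278 and 0.0470). There Ebi3 and Fgl2 lost their calls.

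Pearson correlations over the 6 libraries, which share the genotype difference, were 0.92 for Ebi3 with Fgl2, 0.94 for Ebi3 with Penk and 0.93 for Fgl2 with Penk. After the genotype means were removed these fell to -0.03, -0.25 and 0.11, whereas Il10 with Fgl2 stood at 0.99 and Gzmb with Lgals1 at 0.90. They describe 6 libraries only. Of 9360 protein-coding genes with at least 5 CPM, those most like Ebi3 in log2 CPM were Fbxw8, Haspin and Klrg1 (r from 0.992 to 0.998). For Fgl2 they were Entpd1, Stx11 and Tmbim1 (0.997 to 0.999), for Penk Epcam, Sec11c and Gprasp2 (0.991 for each), and for Areg Gtf2a1, Cep83 and Ran (0.991 to 0.999). These correlations include the genotype difference, and each is among the highest of 9360 over 6 libraries, so its size was selected. The genes named for Areg hardly differed between genotypes. Gtf2a1, Cep83 and Ran changed by -0.11, -0.14 and -0.15 (edgeR adjusted p = 0.724, 0.698 and 0.593).

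The authors' deposited table gives the same direction for the 7 tested members. It lists log2 fold changes of -1.87 for Penk, -1.42 for Fgl2 and -1.40 for Ebi3 with adjusted p-values of 2.05e-22, 3.19e-11 and 4.14e-11. For Areg the authors' deposited table lists -1.72 with an adjusted p of 0.0586, and for Gzmb, Lgals1 and Il10 adjusted p-values of 0.708, 0.671 and 0.999.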

How the data were processed

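RNA-seq of 3 WT and 3 Exon2KO Treg libraries was deposited as 1 table of 55840 genes. The table's counts are whole reads per gene and were deposited without normalization, per the file headers. Another 6 per-sample columns were not used. The authors also deposited their own comparison of the genotypes, with a scaled count signal per group, log2 fold changes and p-values. The submitters' processing notes name HISAT2 2.0.5, StringTie 1.3.3b, featureCounts 1.5.0-p3, DESeq2 1.16.1 and the build mm10, with no role or order. The strand setting and annotation are not given in the sources used here. Positions are those of the deposited table, and all 8 members have the same position in GENCODE M21 (GRCm38).

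Columns could be assigned to a genotype but not to a titled replicate. Counts were tested with edgeR 4.0.16 in R 4.3.3 (filterByExpr, TMM, robust quasi-likelihood fit, two-sided), Exon2KO against WT over 14919 genes, with Benjamini-Hochberg adjustment over all of them and calls at an adjusted p under 0.05. CPM use TMM-scaled library sizes, log2 CPM a prior count of 2, and levels between genes CPM per kilobase of the deposited gene length. The SE is the absolute log2 fold change divided by the square root of F, and 95% intervals use its degrees of freedom. The number in the column names was also fitted as a block. Same-numbered libraries deviated together from their group means (r across genes 0.271, 0.369 and 0.494 for numbers 2, 6 and 20). This pairing comes from the shared numbers alone, whose meaning the labels do not give. The block lowered edgeR's common coefficient of biological variation from 17.3% to 8.56%. Alternatives used other filters, scalings, DESeq2 1.42.0, limma-voom (limma 3.58.1), and fewer libraries. Scripts were tested on simulated data.

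Members, lists, motifs and tests were chosen with earlier results of these data known, so no list is independent evidence. Named genes are the 8 members, up to 4 called genes per related list by smallest p, receptors or partners a result turns on, and for each called member the 3 protein-coding genes most correlated with it. Tigit, Bhlhe40, Il12rb1, Il12rb2, Prdm1, Maf, Pomc, Oprm1, Prf1, Egfr, Il18r1, Adam17, Adam10, Hbegf, Lgals8 and Lgals9 are named as list members after their values were seen, as are the markers. The same holds for Ikzf3, Gzma, Gzmk and Ccl5.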

Additional observations from a re-analysis of the deposited data

How the results depend on the processing

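Penk kept its direction and call in all 18 alternatives, and its adjusted p never exceeded 0.0470. Ebi3 and Fgl2 kept theirs except without both libraries numbered 2 (Ebi3 -1.40, edgeR adjusted p = 0.226, and Fgl2 -1.46, 0.278), where 2 libraries stood against 2, and for Fgl2 without Exon2KO 2. Over the fits that left out 1 library the log2 fold change ran from -1.52 to -1.29 for Ebi3, from -1.67 to -1.26 for Fgl2, from -2.01 to -1.74 for Penk, from -2.15 to -0.87 for Areg and from -2.33 to -0.32 for Gzmb. It ran from -0.92 to 0.36 for Il10, positive without WT 20 (0.36), Exon2KO 2 (0.15) or Exon2KO 20 (0.30), and from -0.47 to 0.011 for Lgals1. Il10 was also positive without both libraries numbered 20 (0.73). The replicate block made Areg a call (-1.55) and changed no other member's call. Where the cause is not given by fewer libraries or genes, it was not tested.

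The count of 348 called genes (113 higher, 235 lower) rose to 1450 (586 and 864) with the replicate block, 643 (219 and 424) in DESeq2 and 617 (195 and 422) when no count filter was applied. It was 2 (0 and 2) without both libraries numbered 2 and 46 (12 and 34) without both numbered 6. Over the fits without 1 library it ran from 86 to 314, with 22 to 115 higher and 64 to 199 lower. The 5 called genes of the related lists became 3 with at least 10 counts in every library, which removes Il17a and Ccl20, 11 with DESeq2, 16 with the block, 0 without both libraries numbered 2 or both numbered 6, and 2 to 6 without 1 library. The block on the titles' replicate numbers was not run, because columns carry other numbers. Scaling from autosomal genes left every member's call and direction as in the main setting.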
